A study of Homo sapiens with 12 samples.

Results

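The glycine tRNAs with the anticodon GCC were followed here through their cytosine methylation. They are all tRNAs in the lists whose name starts with tRNA-Gly-GCC, which gave 2 of the 15 tRNAs listed. These are the isodecoders tRNA-Gly-GCC-1-1 and, with a slightly different sequence, tRNA-Gly-GCC-2-1. Together they held 14 of the 59 listed cytosines, 9 in tRNA-Gly-GCC-1-1 and 5 in tRNA-Gly-GCC-2-1. Of the 21 sites listed in all 6 libraries, 8 were theirs: positions 38, 48, 49 and 50 of each tRNA.

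The lists come from tRNA bisulfite sequencing of U251, an established human glioblastoma cell line. There were 3 libraries titled NC and 3 titled Si. The series describes wild-type U251 and an NSUN3 knockdown, NSUN3 being an RNA methyltransferase, and Si was read as that knockdown; no source used here spells out either abbreviation, the agent or the time of treatment. Whether the replicates were grown separately is not stated in the labels. The scatter among libraries, and with it every p-value here, may therefore be technical only. NSUN3 mRNA and cell type markers are not measured by this assay, so neither the knockdown nor the cell type was checked, and 6 libraries of another glioblastoma line were not analysed here.

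Bisulfite converts an unmodified cytosine to a base that is read as T, and 5-methylcytosine stays C. The methylation level of a site is therefore the share of its reads that still show C, after reads with another base are left out. The lists held between 34 and 47 sites per library, with a summed coverage of 2020 to 2869 reads over the listed sites. No entry had fewer than 30 reads or a level under 10.0%, so the level of a site is unknown wherever it is unlisted, and such a site was never counted as 0. Between 9 and 12 of the entries in each library were tRNA-Gly-GCC sites.

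Isodecoders are tRNAs that share an anticodon and differ elsewhere in their sequence. tRNA-Gly-GCC carries glycine to codons read by that anticodon, and it is known as an abundant source of tRNA fragments that are cut in the anticodon loop. Position 38 lies in that loop, next to the anticodon stem, and is the known target of TRDMT1 (DNMT2), which also acts on tRNA-Asp and tRNA-Val. Positions 48 to 50, at the junction of variable loop and T stem, are known targets of NSUN2. NSUN3 is known for the wobble cytosine of mitochondrial tRNA-Met.

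The gene sequences of both isodecoders are shown because nearly everything below concerns 4 cytosines that lie in an identical setting in each. The capitals mark position 38 and then positions 48, 49 and 50.
tRNA-Gly-GCC-1-1: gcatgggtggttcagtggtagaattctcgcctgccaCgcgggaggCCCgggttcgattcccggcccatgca
tRNA-Gly-GCC-2-1: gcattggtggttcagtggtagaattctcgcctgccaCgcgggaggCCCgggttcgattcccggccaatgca

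In build hg38 the listed tRNA-Gly-GCC-1-1 gene is TRG-GCC1-1 at chr1:161443304-161443374 on the plus strand, with position 38 at 161443340 and positions 48 to 50 at 161443349 to 161443351. The listed tRNA-Gly-GCC-2-1 gene is TRG-GCC2-1 at chr1:161523847-161523917 on the minus strand, with position 38 at 161523881 and positions 48 to 50 at 161523872 to 161523870. Each gene is 71 bases long and transcribed as 1 tRNA. The sequences are identical at 69 bases (97.2%) and differ by G5T and C66A, counted from base 1 at the 5′ end with the tRNA-Gly-GCC-1-1 base first. Both differences lie in the acceptor stem, so a read that covers neither base cannot be assigned to one isodecoder. Per the lists, tRNA-Gly-GCC-1-1 has 5 identical gene copies, 4 on chromosome 1 and 1 on chromosome 21. tRNA-Gly-GCC-2-1 has 6, on chromosomes 1, 2, 6, 16 and 17, and a level is a mean over the transcripts of all copies.

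Position 38, in the anticodon loop, was methylated in most reads of tRNA-Gly-GCC-1-1 and in somewhat more than every other read of tRNA-Gly-GCC-2-1. In tRNA-Gly-GCC-1-1 the level at position 38 was 94.3%, 91.1% and 84.2% in NC replicates 1, 2 and 3, over 53, 45 and 57 reads. It was 84.5%, 87.1% and 82.4% in Si replicates 1, 2 and 3, over 71, 62 and 68 reads. NC replicates 1 and 2 were the highest of the 6, and the groups overlapped, since NC replicate 3 fell below Si replicates 1 and 2. The mean over all 6 libraries was 87.3% ± 4.60 (SD, n = 6).

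In tRNA-Gly-GCC-2-1 the level at position 38 was 65.5%, 67.1% and 56.0% in the NC libraries, over 84, 76 and 84 reads. It was 51.7%, 60.7% and 57.7% in the Si libraries, over 149, 122 and 123 reads. Again NC replicates 1 and 2 were the highest and NC replicate 3 lay among the Si values, with the lowest level in Si replicate 1. The mean over all libraries was 59.8% ± 5.85 (SD, n = 6), and the highest tRNA-Gly-GCC-2-1 value lay below the lowest tRNA-Gly-GCC-1-1 value. A single library gave this level with an exact binomial 95% interval from 43.4% to 59.9% in Si replicate 1; such an interval covers counting error alone, because the reads carry no molecular identifiers and may repeat 1 molecule.

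Position 48, the first cytosine of the run of 3, was the lowest of the 4 sites in tRNA-Gly-GCC-1-1. Its level was 86.0%, 75.0% and 69.4% in the NC libraries, over 43, 36 and 49 reads, and 80.3%, 78.4% and 71.9% in the Si libraries, over 61, 51 and 57 reads. In tRNA-Gly-GCC-2-1 it was 68.2%, 60.8% and 65.2% in the NC libraries, over 86, 79 and 89 reads, and 63.8%, 66.1% and 63.8% in the Si libraries, over 152, 124 and 127 reads. NC spanned the Si values in both tRNAs. The single read with another base in all 6 lists was at this site of tRNA-Gly-GCC-2-1, in NC replicate 1.

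Position 49, in the middle of the run, was the most methylated site of both tRNAs. In tRNA-Gly-GCC-1-1 it was 88.6%, 91.7% and 94.0% in the NC libraries, over 44, 36 and 50 reads, and 95%, 92.2% and 96.5% in the Si libraries, over 60, 51 and 57 reads. In tRNA-Gly-GCC-2-1 it was 81.2%, 77.8% and 74.7% in the NC libraries, over 85, 81 and 91 reads, and 68.6%, 74.0% and 75.4% in the Si libraries, over 159, 123 and 130 reads. Si lay toward the upper end in tRNA-Gly-GCC-1-1 and toward the lower end in tRNA-Gly-GCC-2-1, with overlap in both.

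Position 50, the last of the run, varied most between libraries in tRNA-Gly-GCC-2-1. In tRNA-Gly-GCC-1-1 its level was 86.0%, 78.8% and 75.5% in the NC libraries, over 43, 33 and 49 reads, and 84.5%, 87.8% and 81.8% in the Si libraries, over 58, 49 and 55 reads. In tRNA-Gly-GCC-2-1 it was 63.6%, 75.6% and 59.6% in the NC libraries, over 88, 82 and 89 reads, and 49.4%, 63.5% and 62.8% in the Si libraries, over 158, 126 and 129 reads. NC replicate 2 was the highest and Si replicate 1 the lowest in tRNA-Gly-GCC-2-1, and the groups overlapped in both tRNAs.

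**Figure D1:**
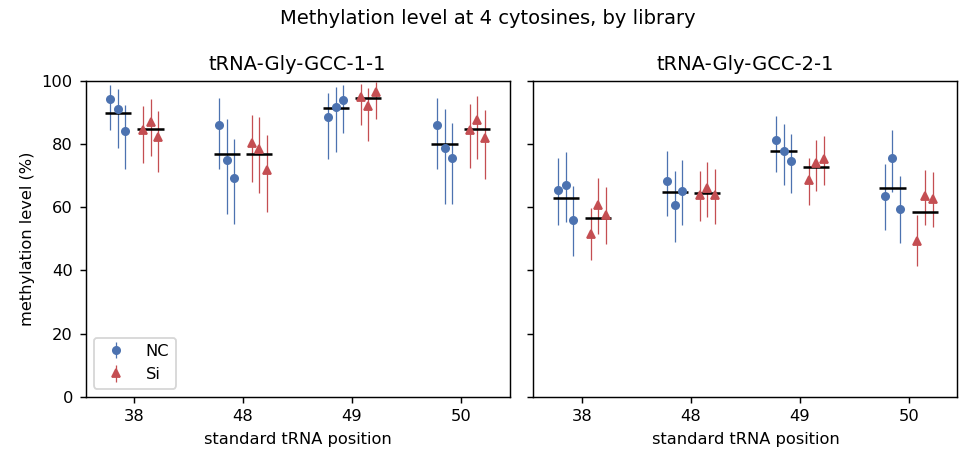
Methylation level in percent (vertical axis) at positions 38, 48, 49 and 50 of each isodecoder, 1 point per library, with exact binomial 95% intervals as vertical lines and group means as black bars. tRNA-Gly-GCC-1-1 lies between 69.4% and 96.5% and tRNA-Gly-GCC-2-1 between 49.4% and 81.2%, and NC and Si overlap at every site.

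The other 6 tRNA-Gly-GCC sites were listed in 1 to 3 libraries and lay close to the lower limit of the lists. In tRNA-Gly-GCC-1-1, position 13 was at 10.2% in Si replicates 2 and 3, which is 26 of 255 reads when both are pooled (exact 95% interval 6.77% to 14.6%). That pool holds only libraries above the 10.0% limit, so its interval does not stand for the level of the site over all libraries. Position 27 ranged from 10.0% to 10.8% in NC replicates 1 and 3 and Si replicate 2. Position 29 was at 10.2% in NC replicate 1 and 10.1% in NC replicate 3, and position 31 at 10.8% in Si replicate 2. Position 40, close to position 38 on the 3′ side, was at 12.7% in Si replicate 1 and 10.7% in Si replicate 2. In tRNA-Gly-GCC-2-1 it was at 12.2% in NC replicate 2, on 9 of 74 reads. Which library passed a 10.0% limit says nothing of a difference between NC and Si, and none of these 6 sites entered a test. tRNA-Gly-GCC-1-1 has 21 cytosines and tRNA-Gly-GCC-2-1 has 20, so 12 and 15 of them were in no list.

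At the shared positions tRNA-Gly-GCC-1-1 was more methylated than tRNA-Gly-GCC-2-1 in every library. Within a library the difference at position 38 was 27.5 ± 3.24 percentage points (SD, n = 6), from 24.0 to 32.8. It was 12.2 ± 5.18 points at position 48, from 4.22 to 17.8, and 17.7 ± 6.48 points at position 49, from 7.46 to 26.4. At position 50 it was 19.99 ± 10.5 points, from 3.18 to 35.1. An exact two-sided sign-flip permutation test gave p = 0.03125 at each of the 4 positions, also when adjusted over them, which is the smallest value that 6 libraries allow. The lists do not show how reads that cover neither differing base were assigned, and the part of such reads in the difference was not tested.

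In percentage points, the difference between isodecoders was wider at position 38 than at positions 48 and 49. It exceeded that at position 48 by 15.3 ± 5.08 points and that at position 49 by 9.78 ± 6.15 points, in 6 of 6 libraries each (exact sign-flip p = 0.03125, 0.0365 when adjusted over 7 tests chosen after the values were seen). Against position 50 it was 7.51 ± 8.12 points wider, in 5 of 6 libraries, which did not pass (exact sign-flip p = 0.09375, also after adjustment). In log2 odds of methylated against unmethylated reads, the mean difference was 2.12 at position 38, 0.82 at 48, 1.88 at 49 and 1.395 at 50. The contrast between positions was not tested on that scale. By mean level, position 38 was the second highest of the 4 sites in tRNA-Gly-GCC-1-1 and the lowest in tRNA-Gly-GCC-2-1.

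**Figure D2:**
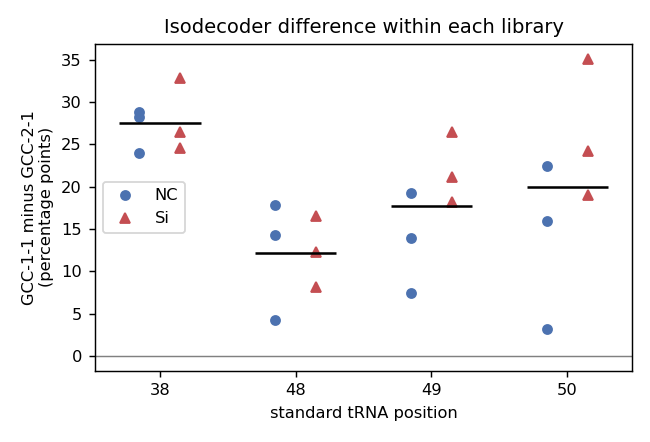
Level of tRNA-Gly-GCC-1-1 minus level of tRNA-Gly-GCC-2-1 within each library, in percentage points (vertical axis), at the 4 shared positions; bars are means over 6 libraries. All points lie above 0, the mean is 27.5 at position 38 and 12.2 at position 48, and position 50 ranges from 3.18 to 35.1.

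In order of mean level, tRNA-Gly-GCC-1-1 ran from position 49 (93.0% ± 2.78) over 38 (87.3% ± 4.60) and 50 (82.4% ± 4.63) to 48 (76.9% ± 6.04; SD, n = 6 each). tRNA-Gly-GCC-2-1 ran from position 49 (75.3% ± 4.20) over 48 (64.6% ± 2.53) and 50 (62.4% ± 8.43) to 38 (59.8% ± 5.85). Among the 21 sites listed in all libraries, ranked by mean level, those of tRNA-Gly-GCC-1-1 held ranks 2, 6, 9 and 11 and those of tRNA-Gly-GCC-2-1 ranks 12, 15, 16 and 17. None of the 6 pairs of neighbours in these orders passed after adjustment over the 6 pairs. With 6 libraries the exact sign-flip p cannot fall under 0.03125, which became 0.1875 for the only pair that reached it. A single pair could therefore not pass, and the orders were taken from these same values.

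The clearest step was from position 49 to 48 in tRNA-Gly-GCC-2-1, by 10.6 ± 4.26 points in 6 of 6 libraries (exact sign-flip p = 0.03125, adjusted 0.1875). In tRNA-Gly-GCC-1-1 the steps were 5.72 ± 7.32 points from 49 to 38, 4.87 ± 5.56 from 38 to 50 and 5.55 ± 3.72 from 50 to 48, each in 5 of 6 libraries. In tRNA-Gly-GCC-2-1 position 48 exceeded 50 by 2.24 ± 9.59 points and 50 exceeded 38 by 2.64 ± 4.14 points, well within the spread. The middle cytosine of the run was tested after its values were seen, so that p-value is no separate support. It stood above the mean of its neighbours 48 and 50 in all 6 libraries. The gap was 13.4 ± 6.98 points in tRNA-Gly-GCC-1-1 and 11.7 ± 2.19 points in tRNA-Gly-GCC-2-1 (exact sign-flip p = 0.03125, 0.0365 when adjusted over the same 7 tests).

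Position 38 of tRNA-Asp-GTC, the other tRNA here that is a known TRDMT1 target, was compared because its loop and flanks resemble those of tRNA-Gly-GCC. The capital marks position 38 in 21 bases of build hg38, at chr1:161443330-161443350 on the plus strand for tRNA-Gly-GCC-1-1 and chr12:98503530-98503550 on the plus strand for tRNA-Asp-GTC-1-1. The same 21 bases occur in tRNA-Asp-GTC-2-5.
tRNA-Gly-GCC-1-1, position 38: tcgcctgccaCgcgggaggcc
tRNA-Asp-GTC-1-1, position 38: ccgcctgtcaCgcgggagacc

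tRNA-Asp-GTC-1-1 had a level of 23.2% ± 7.89 (SD, n = 6; 12.9% to 33.3%) at position 38, and tRNA-Asp-GTC-2-5 one of 17.2% ± 2.93 (14.3% to 21.7%). tRNA-Gly-GCC-1-1 stood 64.1 ± 6.78 and 70.03 ± 6.25 points above them, and tRNA-Gly-GCC-2-1 stood 36.6 ± 8.10 and 42.5 ± 7.72 points above them. Each difference was positive in 6 of 6 libraries, with an exact sign-flip p of 0.03125. Adjusted over 8 such comparisons with other tRNAs, p was 0.05, which does not pass a threshold of under 0.05, and 6 libraries allow no smaller p before adjustment.

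Positions 49 and 50 of the run were set beside those of tRNA-Gly-CCC-1-1, a glycine tRNA with another anticodon and 1 of 2 tRNA-Gly-CCC listed. Position 48 was not compared. The capital marks position 49 in 21 bases, at chr1:161443340-161443360 on the plus strand and chr1:16545953-16545973 on the minus strand.
tRNA-Gly-GCC-1-1, position 49: cgcgggaggcCcgggttcgat
tRNA-Gly-CCC-1-1, position 49: cgcgggagacCcgggttcaat

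At position 49 tRNA-Gly-CCC-1-1 had a level of 89.7% ± 4.95 (SD, n = 6). tRNA-Gly-GCC-1-1 lay 3.32 ± 5.69 points above it, in 4 of 6 libraries (exact sign-flip p = 0.25), and tRNA-Gly-GCC-2-1 lay below it in 6 of 6, by a difference of -14.4 ± 4.72 points (exact sign-flip p = 0.03125, adjusted 0.05). At position 50, listed for tRNA-Gly-CCC-1-1 in 5 libraries at 89.7% ± 4.97, the differences were -7.21 ± 9.73 points for tRNA-Gly-GCC-1-1 (exact sign-flip p = 0.25) and -27.4 ± 12.0 points for tRNA-Gly-GCC-2-1 (p = 0.0625, the smallest that 5 libraries allow; adjusted 0.0833). tRNA-Gly-CCC-1-1 was thus near tRNA-Gly-GCC-1-1 at position 49, and tRNA-Gly-GCC-2-1 was the lower at both positions in every library compared.

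By the mean absolute difference in level over the 6 libraries, position 38 of tRNA-Gly-GCC-1-1 was nearest, of 13 sites in other tRNAs, to tRNA-Asp-GTC-2-5 position 48 (5.50 points), tRNA-Glu-TTC-2-1 position 50 (5.65) and tRNA-Gly-CCC-1-1 position 49 (5.79). None of the 13 came as near to position 38 of tRNA-Gly-GCC-2-1. Its closest were tRNA-Thr-CGT-4-1 position 48 (12.3 points), tRNA-iMet-CAT-1-1 position 48 (15.1) and tRNA-Asp-GTC-2-5 position 49 (18.4).

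Between Si and NC, none of the 8 tRNA-Gly-GCC sites passed the test of methylation, edgeR's quasi-likelihood test on methylated and unmethylated reads with Benjamini-Hochberg adjustment. Over all tRNAs that test called 1 of 31 sites (3.23%). With all 6 libraries, none of the 8 had an unadjusted p under 0.05 in edgeR, limma or quasi-binomial regression. In Fisher's exact test on summed reads 1 had, and 1 had in edgeR without NC replicate 3. Groups that do not overlap were seen at 0 of the 8 sites and at 2 of the 21 sites listed in all libraries (9.52%). The fitted change was lower in Si at 5 of the 8 and higher at 3, with a median log2 odds ratio of -0.19, against -0.11 over all 31 sites, of which 21 were lower.

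At position 38 the Si mean was below the NC mean in both isodecoders, and neither difference passed the test. The mean of tRNA-Gly-GCC-1-1 was 89.9% ± 5.17 in NC and 84.7% ± 2.38 in the Si libraries (SD, n = 3 each), a difference of -5.23 ± 3.29 points (SE) and a log2 odds ratio of -0.65 (edgeR adjusted p = 0.653). The mean of tRNA-Gly-GCC-2-1 was 62.8% ± 6.02 in NC and 56.7% ± 4.58 in Si, a difference of -6.16 ± 4.37 points (SE) and a log2 odds ratio of -0.37 (edgeR adjusted p = 0.653). When 1 library was left out, the log2 odds ratio ran from -1.21 (without NC replicate 3) to -0.31 (without NC replicate 1) in tRNA-Gly-GCC-1-1. In tRNA-Gly-GCC-2-1 it ran from -0.59 (without NC replicate 3) to -0.22 (without Si replicate 1). Averaged over both isodecoders, position 38 was at 79.9%, 79.1% and 70.1% in NC and 68.1%, 73.9% and 70.0% in Si. NC replicate 3 stood with the Si libraries, and the difference of -5.70 points had an exact two-sided permutation p of 0.2, where 3 against 3 libraries allow no p under 0.1. It ran from -3.93 points without NC replicate 1 to -8.84 points without NC replicate 3, so that its size depended on which NC libraries were kept.

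Positions 48 to 50 did not move one way. Position 48 had nearly equal means, with differences of 0.0849 ± 5.51 points (SE) in tRNA-Gly-GCC-1-1 and -0.146 ± 2.30 points in tRNA-Gly-GCC-2-1. At position 49 the difference was 3.12 ± 2.01 points in tRNA-Gly-GCC-1-1 and -5.25 ± 2.79 points in tRNA-Gly-GCC-2-1. At position 50 it was 4.57 ± 3.56 points and -7.72 ± 6.66 points. The edgeR adjusted p was 0.883 at positions 49 and 50 of tRNA-Gly-GCC-1-1, 0.653 at those of tRNA-Gly-GCC-2-1 and 0.984 at position 48 of both.

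Whether the gap between isodecoders differed between Si and NC was tested directly. At position 38 the NC libraries had a gap of 27.0 ± 2.65 points and the Si libraries one of 28.0 ± 4.31 points (SD, n = 3 each; exact permutation p = 0.8). At position 49 it was 13.5 ± 5.92 points in NC and 21.9 ± 4.19 in Si, and at position 50 it was 13.8 ± 9.79 and 26.1 ± 8.21 (exact permutation p = 0.2 each, 0.4 when adjusted over the 4 positions). At position 48 the Si gap exceeded the NC gap by 0.231 points (exact permutation p = 1.0). The mean gap was wider in Si at positions 49 and 50, with overlap between groups, and no position passed. Its size there moved with single libraries. The Si gap exceeded the NC gap by 8.37 points at position 49, or 5.33 without NC replicate 1, and by 12.3 points at position 50, or 6.95 without NC replicate 2 and 7.80 without Si replicate 1.

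Since shared reads may be divided between near-identical tRNAs, the reads of both isodecoders were also summed. Position 38 was then at 76.6%, 76.0% and 67.4% in NC and 62.3%, 69.6% and 66.5% in Si, a difference of -7.24 points (exact permutation p = 0.2). At positions 48, 49 and 50 the summed difference was -0.513, -3.47 and -5.06 points (exact permutation p = 0.9, 0.2 and 0.4). None passed, and the groups overlapped at each. A summed level depends on the share of each isodecoder in the reads as well as on the levels, and the share of the more methylated tRNA-Gly-GCC-1-1 was lower in Si, by a difference of -4.91 points at position 38 and -3.80 at position 48. At position 48 neither isodecoder alone differed by more than a small fraction of a point (0.0849 and -0.146). At position 38 both isodecoders alone had a lower mean in Si, by differences of -5.23 and -6.16 points. At positions 49 and 50 only tRNA-Gly-GCC-2-1 did (-5.25 and -7.72 points). The parts of share and level in the summed differences were not tested.

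More reads of both isodecoders were listed in the Si libraries. For each tRNA the site of highest mean coverage among those in all 6 lists stood for it, which was position 38 in tRNA-Gly-GCC-1-1 and position 50 in tRNA-Gly-GCC-2-1. tRNA-Gly-GCC-1-1 had 53, 45 and 57 reads in NC and 71, 62 and 68 in Si. In tRNA-Gly-GCC-2-1 the NC libraries had 88, 82 and 89 reads and the Si libraries 158, 126 and 129. Every Si library was above every NC library for both, with Si replicate 1 the highest. Groups that do not overlap were common here, at 7 of the 9 tRNAs tested (77.8%), so that this alone does not set the pair apart.

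In edgeR with TMM scaling, tRNA-Gly-GCC-2-1 was 1.78-fold higher in Si (log2 0.83, adjusted p = 1.81e-06) and tRNA-Gly-GCC-1-1 1.45-fold higher (log2 0.53, adjusted p = 0.00157). Of the 9 tRNAs, 6 were called (66.7%) and 3 of them were higher in Si (33.3%), namely both tRNA-Gly-GCC and tRNA-Glu-TTC-2-1. DESeq2 called 1 higher and 2 lower, and tRNA-Gly-GCC-1-1 lost its call there (log2 0.48, DESeq2 adjusted p = 0.0832), while tRNA-Gly-GCC-2-1 kept it (log2 0.77, adjusted p = 0.000396). Without scaling, the median log2 change over the 9 tRNAs moved by -0.159, and the log2 changes were 0.37 and 0.67.

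The scaling rests on 9 tRNAs, and the most covered of them, tRNA-iMet-CAT-1-1, went from 201, 176 and 210 reads in NC to 92, 91 and 95 in Si. The part of that shift in the rise of tRNA-Gly-GCC was not tested. In bulk RNA, more tRNA per cell, more cells that carry it and a change in capture cannot be told apart.

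The mean share of reads listed under tRNA-Gly-GCC-1-1 was lower in Si at the 4 shared positions, which 3 against 3 libraries could not call. How reads that cover neither differing base were placed is not given, and their part in the share was not tested. At position 38 tRNA-Gly-GCC-1-1 took 38.7%, 37.2% and 40.4% of the reads of both in NC and 32.3%, 33.7% and 35.6% in Si. The means were 38.8% ± 1.62 and 33.9% ± 1.67 (SD, n = 3 each), without overlap, and the exact permutation p of 0.1 is the smallest this design allows. At positions 48 and 49 the means were 33.4% in NC and 29.6% and 29.1% in Si, again without overlap and with the same exact p of 0.1. At position 50 they were 32.3% and 28.2% with overlap (exact permutation p = 0.2). Neighbouring positions share reads, so these are not separate tests.

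**Figure D3:**
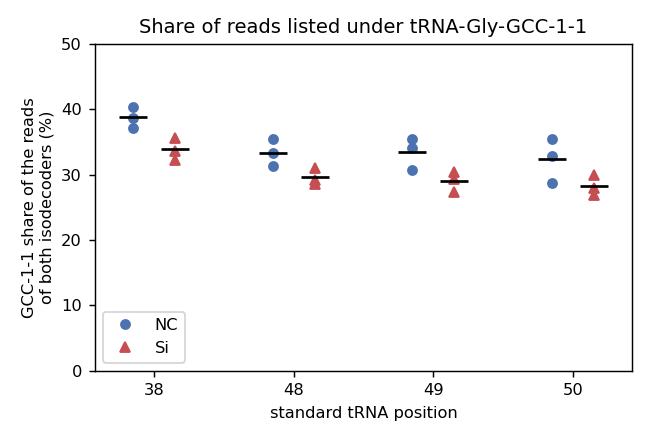
Share of tRNA-Gly-GCC-1-1 in the reads of both isodecoders, in percent (vertical axis, from 0), at each shared position; 1 point per library, bars are group means. The NC points lie above the Si points at positions 38, 48 and 49 (38.8% against 33.9% at position 38) and overlap at position 50.

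Coverage ran differently along the 2 tRNAs. In tRNA-Gly-GCC-1-1 it fell from position 38 to position 50 in each library, with a change of -19.7% ± 4.13 (SD, n = 6; from -26.7% to -14.0%). In tRNA-Gly-GCC-2-1 it rose by 5.47% ± 1.56 over the same stretch (3.28% to 7.89%). Both changes had an exact sign-flip p of 0.03125, or 0.0365 when adjusted over the same 7 tests. The sites of tRNA-Gly-GCC-1-1 nearer the 5′ end, positions 13 to 31, had 83 to 137 reads where they were listed, more than any of its 4 main sites. No site that near the 5′ end was listed for tRNA-Gly-GCC-2-1. tRNA-Asp-GTC-2-5 showed a fall as well, between -24.6% and -10.5% from position 38 to 49. tRNA-Asp-GTC-1-1 did not, since its mean coverage over the 6 libraries was higher at position 49 than at position 38.

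**Figure D4:**
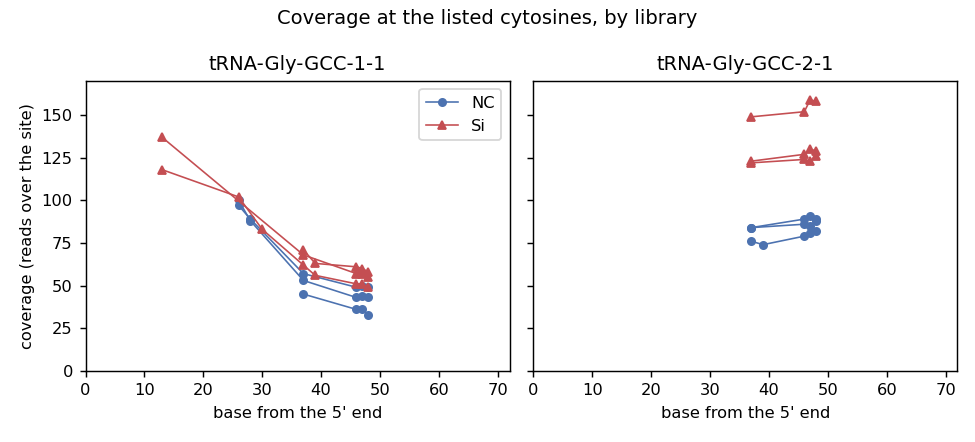
Reads over each listed site (vertical axis, from 0) against the base counted from the 5′ end, 1 line per library. In tRNA-Gly-GCC-1-1 the highest count is 137 reads, at position 13 of Si replicate 3, and position 50 has between 33 and 58. The lines of NC replicate 2 and Si replicate 1 start only at position 38, with 45 and 71 reads. tRNA-Gly-GCC-2-1 has no listed site before position 38 and is nearly level from there to position 50. Over its 4 main sites the Si libraries have between 122 and 159 reads and the NC libraries between 76 and 91.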

How the data were processed

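Of 12 libraries in the series, the 6 of U251 were used, grouped and numbered by their titles. Per the labels' protocols, RNA was extracted with TRIzol, enriched for small RNA, treated with the demethylase AlkB, converted with bisulfite and made into size-selected small RNA libraries. Version 1.9.3 of cutadapt and the build hg38 are named in the submitters' processing notes. The aligner, the filters and the placing of reads that match both isodecoders were not given in the sources used here. Incomplete conversion and other bisulfite-resistant modifications would also be read as methylation.

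Per the file headers, the authors deposited counts per site (coverage, unconverted reads, reads with another base), the level as a fraction, and an adjusted p-value for being methylated. The deposited fraction matched the recomputed level within 0.0005. The deposited p-value was at most 3.12e-06 at tRNA-Gly-GCC sites and entered no test. With 33 to 159 reads at the 8 main sites, a level in 1 library has a wide counting error; exact Clopper-Pearson 95% intervals are given. Si replicate 1 lacks annotation in all but its first entry, so sequences came from the other lists, and standard tRNA positions from the anticodon. Gene names were matched to RefSeq GRCh38.p14 by coordinates.

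The site test took sites that had 10 or more reads in 2 or more NC and 2 or more Si libraries. It was edgeR 4.0.16 (glmQLFit, glmQLFTest, R 4.3.3) on the methylated and unmethylated counts, with each library's own intercept, adjusted by Benjamini-Hochberg over 31 sites at a threshold of 0.05. Coverage was tested likewise with TMM over 9 tRNAs. Differences within a library used exact two-sided sign-flip tests and differences between groups exact two-sided permutation tests (numpy 2.4.6, pandas 2.3.3, scipy 1.17.1, Python 3.11.15). limma 3.58.1, quasi-binomial regression, Fisher's exact test and DESeq2 1.42.0 were alternatives. The site and coverage tests were also run on simulated data whose spread was set beforehand and not taken from these libraries. The outcome is not given here, and that run cannot show how the tests behave at the spread of these libraries. The named sites are all tRNA-Gly-GCC sites, the 3 sites nearest in level to each position 38, position 38 of other tRNAs and positions 49 and 50 of tRNA-Gly-CCC. The members, comparisons and alternatives were chosen with earlier results of these data known.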

Additional observations from a re-analysis of the deposited data

How the results depend on the processing

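The 1 site called over all tRNAs, which is not in tRNA-Gly-GCC, became 0 with limma and with quasi-binomial regression, and was 0 without any 1 library (0 to 0). No tRNA-Gly-GCC site was called in any of these, and 86 of the 96 site values kept their direction and side of the threshold. The 10 that turned were all at position 48, whose change is near 0. In tRNA-Gly-GCC-1-1 its log2 odds ratio was -0.028 at a minimum of 40 reads, -0.011 in limma, -0.0074 with the replicate number as a block and -0.34 to 0.39 when 1 library was left out. In tRNA-Gly-GCC-2-1 it was -0.13 to 0.092 when 1 library was left out. At positions 49 and 50 the direction held, with ranges of 0.41 to 1.03 and 0.19 to 0.72 in tRNA-Gly-GCC-1-1 and of -0.55 to -0.25 and -0.70 to -0.19 in tRNA-Gly-GCC-2-1. A minimum of 1 read changed nothing, because no entry had fewer than 30 reads. Its 8 values are among the 86 and could not have differed, so they are no check.

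The 6 tRNAs called for coverage became 3 in DESeq2. The isodecoder difference passed at 4 positions and at 0 of them over at least 40 reads or without any 1 library (0 to 0), since 5 libraries allow no exact permutation p under 0.0625. Over at least 40 reads, position 38 still had all 6 libraries, and its p adjusted over the 4 positions in the exact permutation test became 0.0625. The differences themselves ranged from 26.4 to 28.2 points at position 38, 11.1 to 13.8 at 48, 16.0 to 19.8 at 49 and 17.0 to 23.4 at 50. The step from position 48 to 50 in tRNA-Gly-GCC-2-1 ran from -0.20 to 5.66 points when 1 library was left out, and turned without Si replicate 1.

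The change of the isodecoder gap between Si and NC at position 38 became -0.29 in log2 odds and ran from -1.51 to 2.59 points when 1 library was left out. At position 48 it became -0.007 in log2 odds and ran from -3.70 to 3.09 points. The cause of these turns was not tested.

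Same-numbered libraries did not deviate together (correlations of 0.0616, 0.265 and -0.376 over 21 sites), so the numbers were not taken as pairs. A replicate block left 1 site and 6 tRNAs called and gave p = 0.25 for the mean of position 38 (exact sign-flip test), the smallest that 3 pairs allow; it changed no call.

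The lists start at 30 reads and 10.0%, so low levels and unlisted sites could not be compared, and a change of a few points in 1 site was not detectable at this depth.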
